A study of Rattus norvegicus with 20 samples.

Results

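Neuropeptide precursors and proteins of the secretory granule were followed across 20 rat brain arrays. The list held 10 genes, *Sst*, *Npy*, *Vip*, *Cck*, *Penk*, *Tac1*, *Vgf*, *Scg2*, *Pcsk1* and *Crh*, and a member was any probe set that the platform annotation gave to one of these genes alone. This rule gave 1 probe set for each of 9 genes, among 14217 genes named on the array and 31042 probe sets that were not controls. *Pcsk1* was not analysed here, since no probe set of the annotation used named it. Each array held brain RNA of 1 male Sprague Dawley rat, 20 weeks old and weighing 250 to 300 g, from tissue labelled as cerebral cortex. In the isoflurane group 10 rats breathed 2% isoflurane, a volatile anaesthetic, in oxygen for 15 minutes, a dose of 1.4 MAC (minimum alveolar concentration, the unit of anaesthetic potency). The 10 rats of the oxygen group breathed oxygen without it for the same time, and brains of both groups were taken 6 hours later.

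Neuropeptides are made as larger precursors that enter the regulated secretory pathway, are cut and modified inside dense-core granules, and are released by activity. Granins are acidic proteins of the same granules that help to form them and are themselves cut into peptides. In the cortex, somatostatin (*Sst*), neuropeptide Y (*Npy*), vasoactive intestinal peptide (*Vip*), cholecystokinin (*Cck*) and corticotropin-releasing hormone (*Crh*) mark classes of inhibitory interneurons, and *Cck* is also made by many cortical projection neurons. Proenkephalin (*Penk*) and tachykinin 1 (*Tac1*, the precursor of substance P) are known above all from medium spiny neurons of the striatum, and *Penk* also from cerebellar Golgi cells. *Vgf* and *Scg2* (secretogranin II) encode granin-family proteins, and transcription of *Vgf* is known to follow neuronal activity and neurotrophins.

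Several of these genes are textbook targets of the cAMP-responsive transcription factor CREB, which binds the palindrome TGACGTCA. Promoter windows of 300 bases, 250 before and 50 after the gene start, were available from RefSeq (GRCr8) for 6 of the 9 genes. The stretch around the best match to the palindrome or its core TGACG is shown for the 5 windows that held one. Capitals mark the match, positions count from the gene start of that table, and up to 60 bases before and 12 after the match are given 5′ to 3′ on the gene's strand.
Sst, chr11:90461488-90461567, plus strand, match beginning at 3: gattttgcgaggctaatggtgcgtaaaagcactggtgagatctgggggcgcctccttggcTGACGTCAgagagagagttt
Vgf, chr12:25277091-25277170, minus strand, match beginning at -90: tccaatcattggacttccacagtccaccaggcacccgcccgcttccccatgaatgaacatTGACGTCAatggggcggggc
Scg2, chr9:88256970-88257049, minus strand, match beginning at -123: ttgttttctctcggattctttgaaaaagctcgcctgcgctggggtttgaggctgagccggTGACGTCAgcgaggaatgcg
Vip, chr1:44470323-44470399, plus strand, match beginning at -97: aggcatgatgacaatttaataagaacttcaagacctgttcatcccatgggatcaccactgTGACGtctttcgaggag
Tac1, chr4:36645333-36645393, plus strand, match beginning at -206: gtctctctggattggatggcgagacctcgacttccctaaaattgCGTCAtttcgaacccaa

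The full palindrome was present in 3 of the 6 windows (*Sst*, *Vgf* and *Scg2*) and in 1.91% of all 27457 windows of the table. The shorter core TGACG, searched on both strands and overlapping the palindrome, was present in 5 of the 6 windows and in 22.0% of all windows. In *Tac1* the core lay on the opposite strand and reads CGTCA above, and the *Npy* window held no match. A match describes these letters and does not show binding.

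Before the results, the arrays had to be told apart by tissue, because the label did not hold for all of them. On 11 arrays (isoflurane replicates 1, 3, 7, 8 and 9 and oxygen replicates 5 to 10) the probe set of *Pcp2*, a Purkinje cell gene of the cerebellum, lay above 12 on the log2 scale, and these are called Pcp2-high. The other 9 (isoflurane replicates 2, 4, 5, 6 and 10 and oxygen replicates 1 to 4) are called Pcp2-low. Apart from *Pcp2*, which set the split, all 5 of the 5 other cerebellar markers on the array (*Gabra6*, *Cbln1*, *En2*, *Fat2* and *Calb1*) were higher on every Pcp2-high array than on every Pcp2-low array, which goes against a cortex label for the 11. Of 5 cortical projection neuron markers, 2 were higher on every Pcp2-low array. Among the Pcp2-low arrays, isoflurane replicates 2, 4, 5 and 6 also stood apart, with a 3′/5′ signal ratio of the beta-actin control between 4.93 and 7.26, against 2.32 on isoflurane replicate 10 and 2.32 to 3.94 on the oxygen arrays. The same ratio of the GAPDH control did not set them apart, at 1.18 to 1.25, against 1.23 on isoflurane replicate 10 and 1.23 to 1.39 on the oxygen arrays. Their summed cerebellar marker signal was 1987 to 2461, against 8424 on isoflurane replicate 10 and 3053 to 4776 on the oxygen arrays. Treatment differences called with these 4 arrays are therefore also given without them.

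All 9 genes were higher on every Pcp2-low array than on every Pcp2-high array, a pattern shared by 9.34% of tested probe sets and by 6.49% of all 31042. The sets were defined from measured values, so these levels are a description with no test, and in bulk tissue fewer cells of a type and less RNA per cell cannot be told apart. *Vip* and *Cck* stood farthest apart among the 7 genes above the low-signal filter. The *Vip* median was 10.82 on the log2 scale on Pcp2-low arrays, with a range of 10.50 to 11.08, and 5.78 on Pcp2-high arrays, with a range of 5.54 to 8.22. For *Cck* the median was 13.38, with a range of 12.74 to 13.50, on Pcp2-low arrays and 8.58, with a range of 7.02 to 10.98, on Pcp2-high arrays. The ratios of these medians were 32.9 for *Vip* and 27.9 for *Cck*. The *Vip* median on Pcp2-high arrays was under the signal level used as a filter below (6.62), so its ratio rests on a weak signal.

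A middle group held *Vgf*, *Sst* and *Npy*. *Vgf* ran from 11.11 to 11.79 on Pcp2-low arrays and from 7.95 to 9.83 on Pcp2-high arrays, a ratio of medians of 5.77. *Sst* ran from 10.91 to 11.89 and from 9.13 to 10.03 on the same sets, a ratio of 4.37. *Npy* ran from 10.96 to 11.66 on Pcp2-low arrays and from 8.27 to 10.27 on Pcp2-high arrays, a ratio of 4.22. The smallest separations were those of *Scg2* and *Penk*, whose signals stayed high in both sets. *Scg2* ran from 11.10 to 11.79 on Pcp2-low arrays and from 9.92 to 10.47 on Pcp2-high arrays, and its medians differed 2.19-fold. *Penk* ran from 11.51 to 12.61 on Pcp2-low arrays and from 10.67 to 11.19 on Pcp2-high arrays, its medians differed 1.95-fold, and its nearest arrays were 0.33 apart on the log2 scale.

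*Tac1* and *Crh* were near the bottom of the signal range on Pcp2-high arrays. *Tac1* ran from 7.53 to 10.09 on Pcp2-low arrays and from 2.12 to 5.61 on Pcp2-high arrays, and *Crh* ran from 7.56 to 8.39 and from 1.48 to 5.58. Detection calls were not used, so such low signals could not be told from background, and no ratio is given for these genes. Both fell below the filter on mean signal (6.62 on the log2 scale over all arrays), so that 7 of the 9 members entered the main tests. The separation was present in each treatment group. The mean difference of Pcp2-low minus Pcp2-high arrays was 4.67 in isoflurane rats and 4.05 in oxygen rats for *Vip*, 4.80 and 3.94 for *Cck*, and 1.05 and 1.02 for *Penk*.

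**Figure D1:**
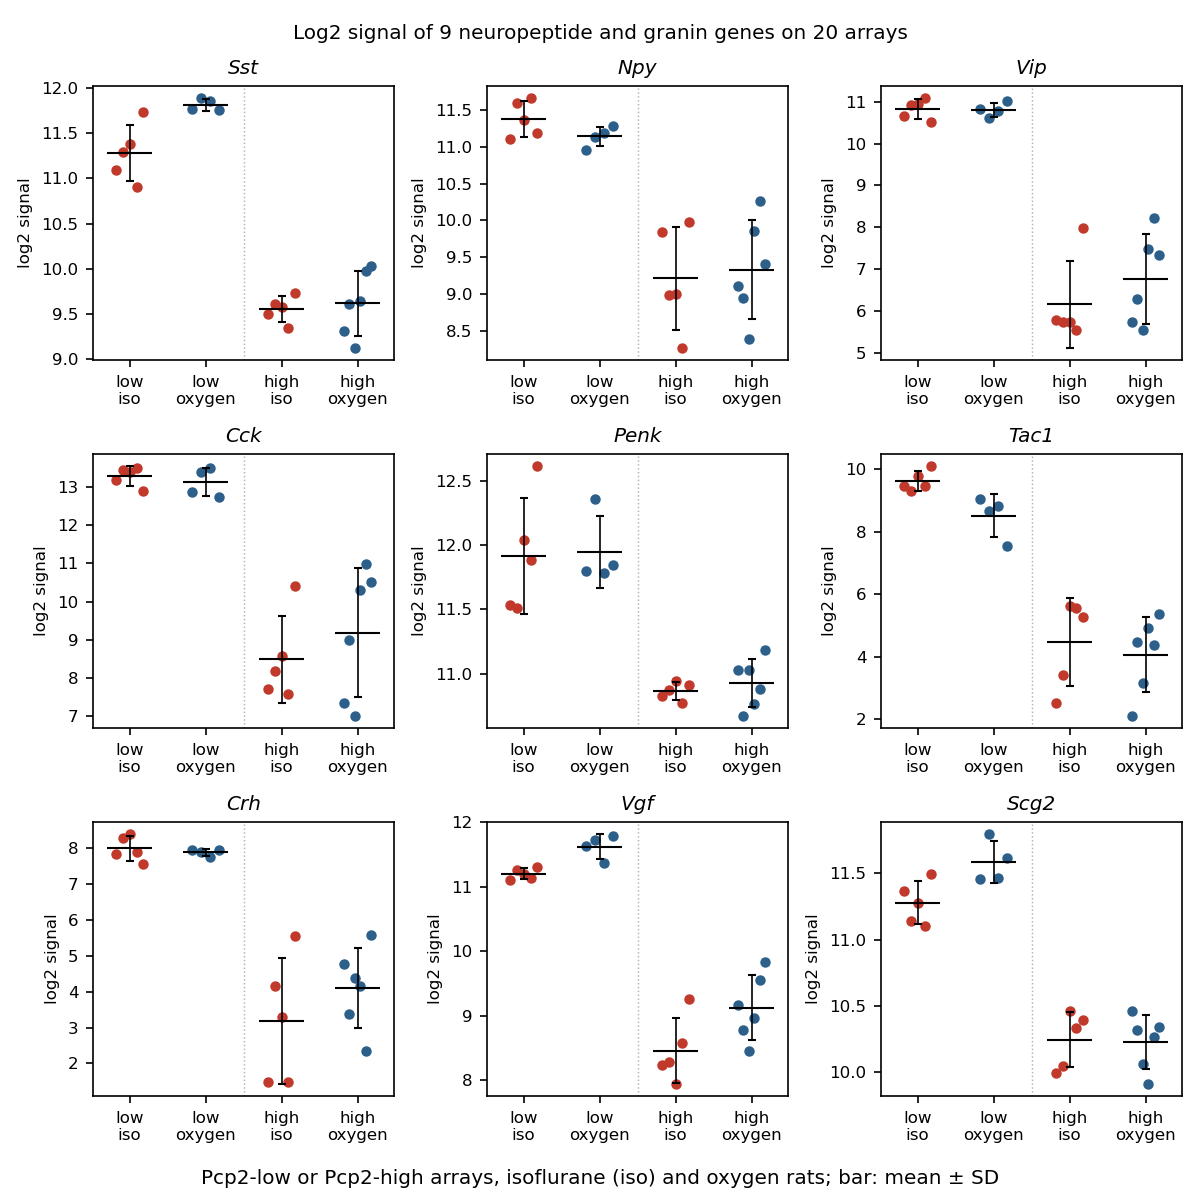
Log2 signal of the 9 genes on each of the 20 arrays, by array set and treatment group, with isoflurane left of oxygen, each point 1 rat, with bars for the mean and SD. For every gene the Pcp2-low arrays lie above the Pcp2-high arrays, by a gap of 0.33 for Penk and 2.29 for Vip.

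The genes also differed in how evenly they were distributed within the Pcp2-high set. The SD over the arrays of that set was 1.44 for *Cck* and 1.05 for *Vip* on the log2 scale, against 0.30 and 0.19 over the Pcp2-low set. *Penk* (0.14 within the Pcp2-high set and 0.36 within the Pcp2-low set) ran the other way. The high values of *Cck* within the Pcp2-high set were 10.40 on isoflurane replicate 9 and 10.30, 10.98 and 10.51 on oxygen replicates 8, 9 and 10. The same 4 arrays had the highest *Vip* of the set, with 7.99 on isoflurane replicate 9 and 7.48, 8.22 and 7.33 on oxygen replicates 8, 9 and 10.

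These arrays were also read against the 5 markers of cortical projection neurons. The choice followed the values just given and the markers include *Fezf2*, which was highest on the same 4 arrays, so the correlations are a description with no p, over 18 relations in all. Over the 11 Pcp2-high arrays the correlation with the mean log2 signal of the 5 markers was r = 0.78 (rho = 0.77) for *Cck*, r = 0.77 (rho = 0.73) for *Vip* and r = 0.70 (rho = 0.78) for *Vgf*. Without the 2 arrays farthest from the median of the marker mean, r was 0.79 for *Cck*, 0.82 for *Vip* and 0.62 for *Vgf*. For the other members r over all 11 arrays was 0.59 (rho = 0.76) for *Sst* and 0.57 (rho = 0.32) for *Tac1*. It was 0.38 for *Crh*, 0.28 for *Npy*, 0.05 for *Scg2* and -0.02 for *Penk*. The markers did not act alike: for *Cck* r was 0.80 with *Fezf2*, 0.66 with *Emx1*, 0.61 with *Tbr1*, 0.17 with *Neurod2* and -0.18 with *Neurod6*. With *Fezf2* left out of the mean, r was 0.63 for *Cck*, 0.66 for *Vip* and 0.70 for *Vgf*. Isoflurane replicate 3 had a *Fezf2* signal of 6.26, near the 6.33 to 6.96 of the 4 arrays, but *Cck* at 8.19 and *Vip* at 5.73.

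The relation was not even along its range. On 6 arrays with marker means of 5.08 to 6.82 *Vip* lay between 5.54 and 5.78, and its higher values lay on the other 5. Over the 9 Pcp2-low arrays the correlations had both signs. They were r = 0.82 for *Sst*, 0.78 for *Vgf* and 0.64 for *Scg2*, against r = -0.67 for *Cck* and -0.70 for *Npy*. Once each treatment group was centred on its own mean, r was 0.55 for *Sst*, 0.35 for *Vgf*, 0.17 for *Scg2*, -0.74 for *Cck* and -0.51 for *Npy*. What else varies with the marker mean was not tested.

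**Figure D2:**
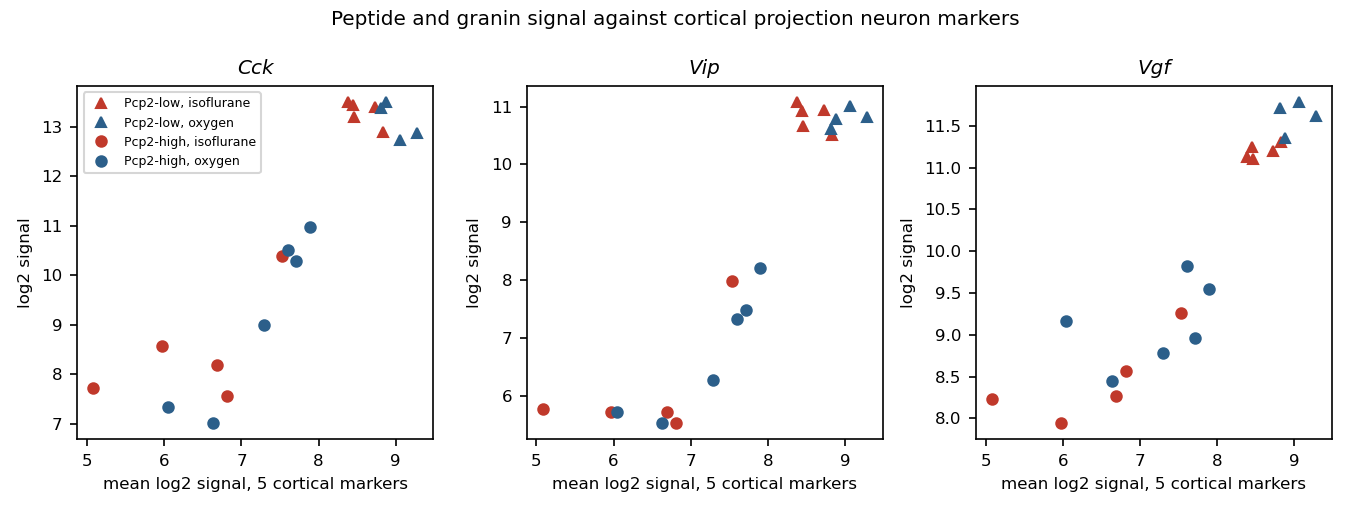
Log2 signal of members against the mean log2 signal of 5 cortical projection neuron markers, each point 1 array, by array set and treatment group. Within the Pcp2-high set the arrays with high marker means, which run from 5.08 to 7.90, carry the high Cck and Vip signals, while Pcp2-low arrays have marker means of 8.38 to 9.28.

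The treatment was first compared over all 20 arrays with the array set as a term of the limma fit. *Vgf* was lower after isoflurane, by 0.55 ± 0.16 on the log2 scale (SE, n = 10 rats per group, limma adjusted p = 0.0399). It was 1 of the 7 members tested that passed, and 7.37% of 18625 tested probe sets passed in either direction and 4.79% in the lower direction. No other member passed: the difference was -0.27 ± 0.12 for *Sst* (limma adjusted p = 0.155) and -0.13 ± 0.09 for *Scg2* (0.375), and the adjusted p was between 0.544 and 0.917 for *Vip*, *Cck*, *Penk* and *Npy*. Centring each array on its median changed the split of calls over all probe sets from 480 higher and 892 lower to 304 and 1175. The *Vgf* call was lost without isoflurane replicates 2, 4, 5 and 6, when limma called 0 probe sets (0.0%, with 3016 under 0.05 unadjusted) and the difference was -0.59 ± 0.21 (limma adjusted p = 0.21). It also hung on single arrays, since *Vgf* passed in 6 of the 20 fits that left out 1 array (isoflurane replicates 9 and 10 and oxygen replicates 3, 6, 7 and 8), with adjusted p from 0.00601 to 0.0782 over all 20 fits (limma).

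Within the 9 Pcp2-low arrays, *Sst* and *Vgf* were lower after isoflurane and the other 5 tested members did not pass. *Sst* measured 11.10, 11.30, 11.38, 10.91 and 11.74 in isoflurane rats (replicates 2, 4, 5, 6 and 10), against 11.76, 11.89, 11.85 and 11.76 in oxygen rats (replicates 1 to 4). The groups did not overlap, with isoflurane replicate 10 just under the lowest oxygen rat. The difference was -0.53 ± 0.14 (SE, n = 5 and 4 rats, limma adjusted p = 0.0286). *Vgf* measured 11.11, 11.25, 11.20, 11.13 and 11.30 in isoflurane rats, against 11.62, 11.72, 11.36 and 11.79 in oxygen rats. Again the groups did not overlap, and the difference was -0.42 ± 0.10 (limma adjusted p = 0.0186). Of all tested probe sets 18.6% passed in this comparison, 7.42% as lower, and in 6.52% every isoflurane rat was below every oxygen rat. With 1 array left out at a time, *Vgf* kept its call in 6 of 9 fits and lost it without isoflurane replicate 2, oxygen replicate 2 or oxygen replicate 4 (limma adjusted p up to 0.0536). *Sst* kept its call in 2 of 9, without isoflurane replicate 10 or oxygen replicate 1, and the adjusted p reached 0.0746 in the others (limma).

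The second granin was lower in the same samples without passing the test. *Scg2* measured 11.37, 11.14, 11.28, 11.10 and 11.49 in isoflurane rats, against 11.46, 11.79, 11.46 and 11.61 in oxygen rats. Isoflurane replicate 10 alone overlapped the oxygen group, and the difference was -0.30 ± 0.11 (limma adjusted p = 0.0757). *Npy* measured 11.11 to 11.66 in isoflurane rats and 10.96 to 11.28 in oxygen rats, a difference of 0.24 ± 0.13 (limma adjusted p = 0.208). *Vip* measured 10.50 to 11.08 in isoflurane rats and 10.61 to 11.02 in oxygen rats, a difference of 0.02 ± 0.13, so that 2 standard errors reached from -0.25 to 0.28. *Cck* differed by 0.16 ± 0.18, with 2 standard errors reaching from -0.19 to 0.52.

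**Figure D3:**
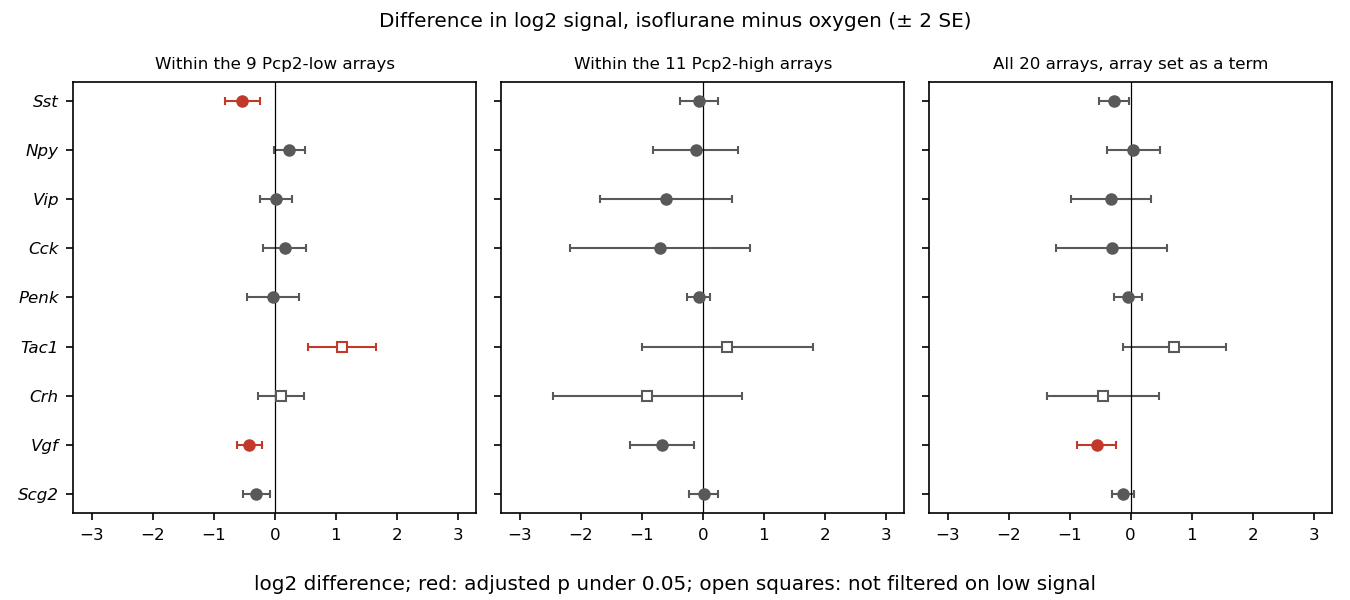
Log2 difference of isoflurane minus oxygen rats for each gene within the Pcp2-low arrays, within the Pcp2-high arrays and in the fit of all 20 arrays, with bars of 2 standard errors, red for an adjusted p under 0.05 and open squares for genes below the filter. Vgf lies below 0 within both sets (-0.42 and -0.66) and in the fit of all 20 arrays (-0.55), which uses the same arrays and is not a separate estimate. Sst is at -0.53 on Pcp2-low arrays and at -0.06 on Pcp2-high arrays.

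*Tac1* went the opposite way. It measured 9.46, 9.31, 9.78, 9.47 and 10.09 in isoflurane rats of the Pcp2-low set, against 9.05, 8.66, 8.82 and 7.53 in oxygen rats. Every isoflurane rat was above every oxygen rat, as for 6.7% of tested probe sets. The highest value was that of isoflurane replicate 10, which is not among the 4 arrays that stood apart. That array had the highest sums of striatal markers (15959) and of hypothalamic markers (2105, against 201 to 342 on the other isoflurane arrays and 278 to 819 on the oxygen arrays), whose part was not tested. Oxygen replicate 2, with the next highest striatal sum of the set (14940), had *Tac1* at 8.66. Isoflurane replicate 4, with the lowest (7713), had it at 9.31. *Tac1* was not in the main test, since its mean over all arrays was below the filter. In the fit with no filter the difference was 1.10 ± 0.28 (limma adjusted p = 0.0265), where 12.5% of 31042 probe sets passed. With the filter applied to the mean within this array set, a setting chosen after the data were seen, the adjusted p was 0.0216 (limma), where 19.1% passed. Without the 4 arrays that stood apart the unfiltered difference was 1.57 ± 1.17 (limma adjusted p = 0.819), in a fit that takes the spread of the lone isoflurane array from the other groups. *Crh* measured 7.56 to 8.39 in isoflurane rats and 7.75 to 7.97 in oxygen rats, and the unfiltered difference was 0.10 ± 0.18 (limma adjusted p = 0.757).

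*Penk* did not differ beyond its spread, at 11.51 to 12.61 in isoflurane rats and 11.79 to 12.36 in oxygen rats of the Pcp2-low set (-0.03 ± 0.22, limma adjusted p = 0.938). Without the 4 arrays that stood apart the difference was 0.67. It then rests on isoflurane replicate 10 alone against the oxygen rats and is given with no p. Its highest arrays were isoflurane replicate 10 at 12.61 and oxygen replicate 2 at 12.36. These also had the highest summed signal of 7 striatal medium spiny neuron markers, 15959 and 14940, against 7713 to 10092 on the other isoflurane arrays and 9200 to 10927 on the other oxygen arrays of the set. The gene whose pattern was most like that of *Penk* was *Ppp1r1b*, the phosphoprotein DARPP-32 of medium spiny neurons, itself one of those markers (r = 0.86 over 20 arrays after centring within group and set).

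Some markers of several cell types differed with treatment in the Pcp2-low set, where 18.6% of all tested probe sets passed. The share called was 25.0% of the tested interneuron markers and 25.0% of the tested projection neuron markers, from lists of few genes. The summed signal of 10 GABAergic interneuron markers was 14748 to 16555 on isoflurane arrays and 12592 to 13669 on oxygen arrays. *Gad2* and *Gad1*, the enzymes of GABA synthesis, were the 2 of 8 tested that passed, and *Gad2* differed by 1.10 ± 0.19 (limma adjusted p = 0.00827). The 8 did not move alike, and their median difference was 0.07. *Maf* differed by 0.17, *Dlx1* by 0.13, *Reln* by -0.001, *Pvalb* by -0.03, *Slc32a1* by -0.205 and *Calb2* by -1.19, all without passing. The summed signal of the 5 projection neuron markers was 2634 to 3368 on isoflurane arrays and 3283 to 3793 on oxygen arrays, but the 4 tested did not move alike and their median difference was 0.01. *Neurod6* differed by -0.77 ± 0.12 (limma adjusted p = 0.00709), *Emx1* by -0.25, *Fezf2* by 0.26 and *Neurod2* by 0.66, the last 3 without passing. The interaction passed for *Neurod2*, at 1.22 ± 0.30 (limma adjusted p = 0.016), and without the 4 arrays it was 0.40 ± 0.35 and did not. *Ttr*, the transthyretin of choroid plexus, differed by -2.97 ± 0.71 (limma adjusted p = 0.0179). It was the 1 of 3 tested choroid plexus genes that passed, and their median difference was -0.30. On the oxygen arrays alone *Ttr* ran from 9.388 to 13.655. Among glial markers *Gfap* (-0.78) and *Aldh1l1* (-0.51) of 5 astrocyte genes, *Sox10* (-0.91) of 5 oligodendrocyte genes and *Csf1r* (-0.56) of 6 microglial genes passed, all lower after isoflurane. The lists did not move alike, with a median difference of -0.16 for astrocyte, 0.24 for oligodendrocyte and -0.11 for microglial genes. The summed oligodendrocyte signal was 42812 to 55403 on isoflurane arrays and 33004 to 48383 on oxygen arrays. The part of these markers in the differences of *Sst*, *Vgf* and *Tac1* was not tested, and neither was that of the beta-actin ratio. Without isoflurane replicates 2, 4, 5 and 6 a single isoflurane array of the set remained, and its spread had to be taken from the other groups. *Sst* then differed by -0.08 ± 0.26 and *Vgf* by -0.32 ± 0.44 (limma adjusted p = 0.963 and 0.889), and no member passed, where 0.123% of probe sets did. None of the marker calls just given passed either, with *Gad2* at 1.40 ± 0.38, *Neurod6* at -0.65 ± 0.20, *Ttr* at -1.77 ± 1.94 and *Gfap* at -0.26 ± 0.16 (limma adjusted p = 0.396, 0.572, 0.853 and 0.75). All 6 cerebellar markers were higher on that isoflurane array than the oxygen mean, from *Calb1* by 0.34 to *Gabra6* by 2.57. *Pcp2*, whose signal set the split, was higher by 2.31. These values rest on 1 isoflurane array and are given as a description with no p.

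**Figure D4:**
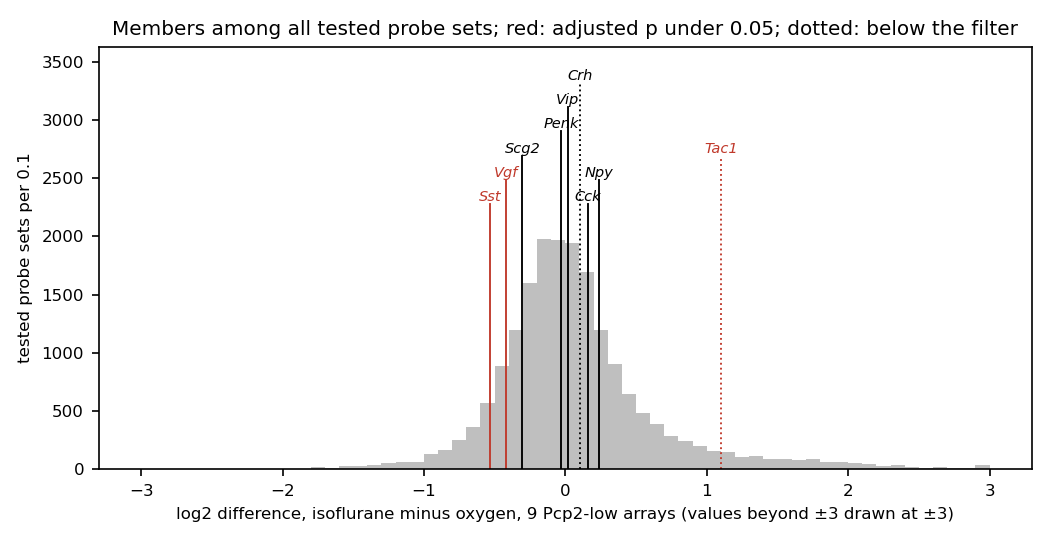
Histogram of log2 differences, isoflurane minus oxygen, of all 18625 tested probe sets on the 9 Pcp2-low arrays, with lines for the 9 genes. Red marks an adjusted p under 0.05 and dotted lines mark genes below the filter, with Sst at -0.53, Vgf at -0.42 and Tac1 at 1.10.

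Within the 11 Pcp2-high arrays no member passed, and limma called 0 of 18625 probe sets (0.0%), while 2376 had an unadjusted p under 0.05. *Vgf* had the lowest p of the members. It measured 8.23, 8.27, 7.95, 8.57 and 9.26 in isoflurane rats (replicates 1, 3, 7, 8 and 9), against 9.16, 8.78, 8.45, 8.96, 9.55 and 9.83 in oxygen rats (replicates 5 to 10). The groups overlapped, with 3 of 5 isoflurane rats below every oxygen rat, and the difference was -0.66 ± 0.26 (SE, n = 5 and 6 rats, limma adjusted p = 0.352). Without isoflurane replicate 9, the highest of its group, the adjusted p was 0.0493 (limma), in a fit that called 1086 of the 18625 probe sets. *Cck* differed by -0.70 ± 0.74 and *Vip* by -0.61 ± 0.54, both with standard errors of the order of the difference. *Vip* entered this test through its signal on Pcp2-low arrays and did not pass a filter on the mean within the Pcp2-high set. *Sst* differed by -0.06 ± 0.16 and *Scg2* by 0.02 ± 0.12.

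Whether the treatment difference varied between the array sets was tested with an interaction term. None of the 7 members passed, against 10.2% of all tested probe sets, and *Sst* was the 1 member with an unadjusted p under 0.05. Its difference was lower on Pcp2-low than on Pcp2-high arrays by 0.47 ± 0.22, a signed value of -0.47 (limma adjusted p = 0.18). The value for *Scg2* was -0.32 ± 0.17 (limma adjusted p = 0.216) and for *Vgf* 0.24 ± 0.32 (limma adjusted p = 0.661). With arrays centred on their medians the median of all probe sets in this contrast was -0.25, against -0.002 uncentred. *Sst* and *Scg2* then passed, at -0.71 and -0.57, as did 20.9% of all tested probe sets.

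The machinery that makes and stores these peptides was read from a list of 25 processing and granule genes, of which 22 were tested. In the fit of all 20 arrays 1 was higher and 4 were lower after isoflurane, and the median difference was -0.03, against 0.00 over all tested probe sets. These 5 are 22.7% of those tested, against 7.37% of all tested probe sets, and the list was chosen with earlier results known. *Rab27b*, a small GTPase of granule transport, was higher by 1.01 ± 0.26 (limma adjusted p = 0.0258). *Pcsk1n*, which encodes proSAAS, a granin-like inhibitor of the convertase PCSK1, was lower by 0.40 ± 0.11, a signed difference of -0.40 (limma adjusted p = 0.0322). *Pam*, the enzyme that amidates peptide ends, differed by -0.53 ± 0.16 (limma adjusted p = 0.045). *Furin*, a proprotein convertase, and *Ptprn2*, a membrane protein of dense-core granules, each differed by -0.37 ± 0.11 (limma adjusted p = 0.039 and 0.0396). The main granule proteins and enzymes did not pass: *Chga* gave -0.16 ± 0.10, *Chgb* 0.09 ± 0.05, *Pcsk2* -0.23 ± 0.14 and *Cpe* 0.13 ± 0.11.

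For *Rab27b* and *Pcsk1n* the interaction term also passed. *Rab27b* differed by 1.88 ± 0.36 on Pcp2-low and by 0.30 ± 0.17 on Pcp2-high arrays (limma adjusted p of the interaction 0.0159). *Pcsk1n* differed by -0.75 ± 0.14 on Pcp2-low and by -0.12 ± 0.10 on Pcp2-high arrays (limma adjusted p of the interaction 0.0268). Within the Pcp2-low set 1 gene of the list was higher and 3 were lower (*Pcsk1n*, *Pam* and *Hid1*, a protein of granule formation). These are 18.2% of the list, near the 18.6% of all tested probe sets. Without the 4 isoflurane arrays that stood apart no gene of the list passed in any of these fits. On Pcp2-low arrays *Rab27b* was then at 0.48 ± 0.31 and *Pcsk1n* at -0.26 ± 0.18, and the interaction was 0.18 ± 0.35 and -0.14 ± 0.20. Over both sets *Furin* was at -0.38 ± 0.14, *Pam* at -0.51 ± 0.21 and *Ptprn2* at -0.32 ± 0.13 (limma adjusted p = 0.212, 0.247 and 0.251).

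Of 46 other neuropeptide precursors, 37 were on the array and 12 passed the filter, with a median difference of -0.17 over all 20 arrays. Among these 12 the call was *Apln*, the precursor of apelin, at -0.38 ± 0.11 (limma adjusted p = 0.0438). Of 23 receptors of the member peptides 9 were tested, with a median of -0.20, and 1 passed. This was *Sstr2*, a somatostatin receptor, at -0.49 ± 0.13 (limma adjusted p = 0.0294). The share called was 8.33% of these precursors and 11.1% of these receptors, against 7.37% of all tested probe sets. Without the 4 arrays *Apln* was at -0.22 ± 0.13 and *Sstr2* at -0.31 ± 0.14, and neither passed. A related receptor, *Sstr3*, gave -0.32 ± 0.10 in the fit of all 20 arrays (limma adjusted p = 0.0513) and -0.21 ± 0.11 without the 4. On Pcp2-low arrays *Sstr3* differed by -0.46 ± 0.14 (limma adjusted p = 0.046). It was the 1 receptor called there, 11.1% of those tested, against 18.6% of all tested probe sets. None of 11 tested activity-regulated genes passed in the fit of all 20 arrays (median -0.31). *Nr4a3*, an orphan nuclear receptor induced by activity, came nearest at -0.62 ± 0.20 (limma adjusted p = 0.0584). On Pcp2-low arrays *Nr4a3* differed by -0.97 ± 0.13 (limma adjusted p = 0.00578) and *Junb*, a subunit of the AP-1 transcription factor, by -0.92 ± 0.27 (limma adjusted p = 0.0389). These 2 are 18.2% of the list, near the 18.6% of all tested probe sets, and *Egr1* differed by -0.004 and *Homer1* by 0.48 without passing. Without the 4 arrays *Nr4a3* was at -0.98 ± 0.51 and *Junb* at -0.19 ± 0.40, and neither passed.

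The genes that followed each member most closely were read over the 20 arrays after centring within treatment group and array set, among 10315 genes. This is a description with no p, since arrays share tissue makeup and RNA quality. For *Vip* these were *Mef2c* (r = 0.97), a transcription factor of forebrain neurons, and *Ddn* (0.96), a dendritic protein. For *Cck* they were *Nrgn* (0.96), the postsynaptic protein neurogranin, and *Camkv* (0.95). The SD of *Vip* and *Cck* was 1.05 and 1.44 within the Pcp2-high set, against 0.19 and 0.30 within the Pcp2-low set. Their r values therefore rest mainly on the 11 Pcp2-high arrays. *Vgf* was most like *Fhod3* (0.94) and *Cyp46a1* (0.87), the neuronal cholesterol 24-hydroxylase. *Sst* was most like *Lmo3* (0.91) and *Ttc19* (0.87), *Npy* like *Tnnc2* (0.87) and *Tox* (0.83), and *Scg2* like *Nxn* (0.83) and *Dzip1* (0.78). *Tac1* was most like *Emx1* (0.85), a homeobox gene of the developing cortex, and *Sstr1* (0.74), and *Crh* like *Med15* (0.86) and *Pard3* (0.84). The SD of *Tac1* and *Crh* was 1.253 and 1.445 within the Pcp2-high set, against 0.747 and 0.254 within the Pcp2-low set. The r values of these 2 genes therefore rest in good part on signals that could not be told from background. *Uba1* (0.82) came second for *Penk*.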

How the data were processed

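The deposited values were linear Affymetrix signal intensities of 20 arrays, 1 per rat, which the authors made with tools that the submitters' processing notes list as MAS5 and Affymetrix Expression Console, with no version. Every array had a 2% trimmed mean between 500.12 and 500.16, so each array had been scaled to a common mean. Detection calls were not used. Groups and replicate numbers came from the titles. The p-values measure the spread between arrays of different rats, which also holds the differences in tissue markers and beta-actin ratio described above.

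A floor of 1 was set, which raised 2015 values, before the log2 step. Of 31042 probe sets that were not controls, 18625 had a mean above the 40th percentile and were tested. The platform annotation gave 1 symbol to 20826 probe sets, several to 436 and none to 9780. Symbols were updated through a RefSeq gene table of GRCr8. Array medians ran from 7.20 to 7.57.

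The comparisons were fitted in limma 3.58.1 under R 4.3.3 (eBayes with trend, two-sided, Benjamini-Hochberg over all tested probe sets, adjusted p under 0.05), tested on simulated data. Correlations are Pearson's r and Spearman's rho from numpy 2.4.6 and scipy 1.17.1. Marker means and sums took the brightest probe set of each gene.

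The members, lists and array sets were chosen with earlier results of these data known. All members were named, with the list genes that passed (at most 6 a list by p, or the 2 with the lowest p where none did) and the 2 genes most like each member. *Hid1*, *Sstr3*, *Junb*, *Chga*, *Chgb*, *Pcsk2*, *Cpe* and the single markers were named after their values were seen. Alternatives were no array set term, quantile normalization, median centring, no trend, robust eBayes, array weights, other filters, a replicate block, 4 group means in 1 fit, and arrays left out.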

Additional observations from a re-analysis of the deposited data

Results flagged for a closer look

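Among 36 groups of 4 to 6 arrays (9 genes in each treatment group of each array set), 2 held an array far from the rest, and chance gives about 1 in 20 such groups. *Vip* measured 7.993 on isoflurane replicate 9, the highest of the 5 Pcp2-high isoflurane arrays, while the other 4 lay between 5.546 and 5.784. The same array had the highest *Cck* of its group. *Penk* measured 12.363 on oxygen replicate 2, the highest of the 4 Pcp2-low oxygen arrays, while the other 3 lay between 11.786 and 11.844. That array had the highest striatal marker sum of its group.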

How the results depend on the processing

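No member changed sign while called. Over all 20 arrays the count of members past the threshold was 1 (*Vgf*) and became 0 with no array set term (*Vgf* -0.29), with quantile normalization (-0.52, limma adjusted p = 0.0526), with no filter (0.0574) and without isoflurane replicates 2, 4, 5 and 6. With each array left out in turn it ran from 0 to 1, with *Vgf* values from -0.65 to -0.47. On Pcp2-low arrays the count was 2, became 3 under median centring (with *Scg2* at -0.51, limma adjusted p = 0.0218) and with no filter (with *Tac1*), 1 (*Sst*) when 4 group means shared 1 fit and 0 without those 4 arrays, with or without the filter (settings chosen after seeing the data), and ran from 0 to 3 with single arrays left out. *Scg2* passed in 1 of those fits (without isoflurane replicate 10). On Pcp2-high arrays it was 0 and ran from 0 to 1 (*Vgf* without isoflurane replicate 9). For the interaction it was 0, became 2 under median centring, and stayed 0 with any single array left out. The cause of these changes was not tested.

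Of all probe sets 1372 passed over 20 arrays, against 74 with no array set term, 29 with the replicate block and 0 without the 4 arrays (limma, with 3016 at an unadjusted p under 0.05). Single arrays left out gave 480 to 2938. On Pcp2-low arrays 3469 passed (2087 higher and 1382 lower), against 5243 under median centring (1467 higher and 3776 lower) and 23 without the 4 arrays. Single arrays left out gave 1606 to 6266 there and 0 to 1086 on Pcp2-high arrays. Under centring the median of all probe sets on Pcp2-low arrays was -0.21. For the interaction 1897 passed, against 3899 under centring, 13 without the 4 arrays, and 1109 to 4303 with single arrays left out.

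With the replicate block and the array set as a term *Vgf* was at -0.55 (limma adjusted p = 0.041) and remained the 1 member called. Same-numbered rats correlated between -0.26 and 0.23, over 0.1 in 2 of 10 pairs, and 1 of 20 arrays correlated best with its own number, so the number is not taken as a pairing. The number of arrays limits the precision.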
